A study of Rattus norvegicus with 6 samples.

Results

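The Reg lectin family was examined in the retina of diabetic rats with and without Danshen treatment, on Affymetrix Rat Gene 2.0 ST arrays, which measure transcripts by hybridization of labelled cDNA to short probes. The members were taken as the 5 genes Reg3b, Reg3g, Reg3a, Reg1a and Reg4, out of 18166 genes that had a probe row of their own, and each of the 5 had 1 such row. The family was chosen by the measured difference of Reg3b and Reg3g between these same arrays, so the values of the 5 members are a description and carry no test. The Danshen-treated group (HCDDP in the study, n = 3 arrays) was diabetic rats gavaged once daily for 12 weeks with Compound Danshen Dripping Pill (CDDP), a preparation of Danshen, notoginseng and borneol, at 0.4 g/kg/d. The diabetic group (n = 3 arrays) received saline. All rats were male SD rats that had been on a high fat diet for 4 weeks, from an age of 5 weeks, and had then received streptozotocin at 30 mg/kg to induce diabetes. The labels give an age of 17 weeks for both groups and the treatment as Danshen with no dose, so the dose and the schedule come from the study's methods. The ages and times of that schedule add up to more than the labelled age, and which of them holds is not known here. Rats without diabetes were not analysed here, so the values set treated against untreated diabetic retina only. It is stated neither in the labels nor in the methods that an array held the RNA of 1 rat.

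Reg proteins are small secreted proteins built around a single C-type lectin domain. They are best known from the gut and the pancreas. In the rat, the Reg3 genes Reg3b, Reg3a and Reg3g are also named as pancreatitis-associated proteins. Reg3b and Reg3g are antimicrobial lectins of the intestinal epithelium, where interleukin-22 and interleukin-6 induce them through Stat3 during infection and injury. Reg1a is a product of pancreatic acinar cells and forms the pancreatic stone protein. Reg4 is made by secretory cells of the intestine. In the rat nervous system, Reg3b has also been described as a Schwann cell mitogen that injured motor neurons make.

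In the RefSeq annotation of the GRCr8 assembly, 4 of the members lay side by side on chromosome 4, in the order Reg3b, the pseudogene Reg3b-ps1, Reg3a, Reg1a, the non-coding gene LOC102556035 and Reg3g, while Reg4 lay on chromosome 2. Related copies of this kind can share array probes, and the deposited signals are summaries of whole probe rows, so a share of one copy's signal in another's row cannot be told apart here. The 150 bases just before the annotated start are shown for the 2 members with different levels in the groups, Reg3b and Reg3g, and for their neighbours Reg3a and Reg1a, which showed no such difference. Capitals mark the letters TATAAA, the core of a TATA box, and TTCNNNGAA, the core of a Stat site, which were searched on both strands in the 250 bases before each start. The sequences are from RefSeq, GRCr8, and read 5′ to 3′ on the strand of the gene. They lie at chr4:112419626-112419775 on the plus strand for Reg3b, chr4:112484739-112484888 on the minus strand for Reg3g, chr4:112430274-112430423 on the plus strand for Reg3a (the later of its 2 annotated starts) and chr4:112450316-112450465 on the plus strand for Reg1a.
Reg3b: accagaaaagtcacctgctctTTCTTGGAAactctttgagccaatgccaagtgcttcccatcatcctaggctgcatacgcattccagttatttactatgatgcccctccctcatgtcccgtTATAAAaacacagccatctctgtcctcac
Reg3g: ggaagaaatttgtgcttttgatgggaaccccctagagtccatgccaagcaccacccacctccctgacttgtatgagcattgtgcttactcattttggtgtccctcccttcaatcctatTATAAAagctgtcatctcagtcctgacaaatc
Reg3a: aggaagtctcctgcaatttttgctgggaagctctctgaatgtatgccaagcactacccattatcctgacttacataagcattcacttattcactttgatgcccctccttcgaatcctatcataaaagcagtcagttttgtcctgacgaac
Reg1a: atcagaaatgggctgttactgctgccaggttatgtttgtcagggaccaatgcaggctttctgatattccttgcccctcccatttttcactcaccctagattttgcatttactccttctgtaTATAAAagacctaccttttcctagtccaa
The upstream regions of Reg3b and Reg3g were the most alike pair among the 5 members, with 164 identical bases in 257 aligned columns (63.8%). Reg3a shared 61.8% of aligned columns with Reg3b and 60.6% with Reg3g, and Reg1a shared 49.2% and 49.8%. Pairs that included Reg4, on another chromosome, shared 45.5% to 49.4%. TATAAA began at position −29 in Reg3b and Reg1a and at −32 in Reg3g, counted back from the annotated start, and was not found in Reg3a or Reg4. It was found in 12.9% of all 33469 upstream regions of the same length. TTCNNNGAA began at −129 in Reg3b and at −242 in Reg1a, outside the stretch shown, against 7.67% of all regions. It did not occur in the 250 bases before Reg3g. A further run of letters, CCCCTCC, was noticed in the sequences and also searched. It began at −48 in Reg3b, −50 in Reg3a, −78 in Reg1a and −193 in Reg4, was not found before Reg3g, and was found in 17.1% of all regions. The motifs and the later start of Reg3a were chosen after the sequences were seen. From the earlier start, Reg3a shared 55% of aligned columns with Reg3b and 53.7% with Reg3g. These matches are letters only, and binding was not measured.

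Reg3b and Reg3g were the members that differed in level, and both were lower in the Danshen-treated retinas. The values are log2 signals, on which 1 unit is a doubling of the signal. The signal of Reg3b was 3.56, 3.31 and 3.62 in Danshen-treated arrays 1, 2 and 3, against 6.81, 6.54 and 4.80 in diabetic arrays 1, 2 and 3. Every Danshen-treated array lay below every diabetic array, and the gap between the nearest arrays was 1.18 log2 units. The group means were 3.50 ± 0.17 in the Danshen-treated group and 6.05 ± 1.09 in the diabetic group (SD, n = 3 each), which gives a log2 difference of −2.56 (standard error 0.46 in limma's fit), or a 5.88-fold lower signal as measured. In each Danshen-treated array fewer than 10% of genes were weaker than Reg3b, so the size of this fold depends on how such weak signals are rendered.

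The signal of Reg3g, the other antimicrobial lectin of the gut, was 5.17, 4.91 and 5.42 in Danshen-treated arrays 1, 2 and 3, against 7.76, 8.01 and 5.95 in diabetic arrays 1, 2 and 3. The groups again did not overlap, but the nearest arrays were only 0.54 log2 units apart. The means were 5.17 ± 0.25 in the Danshen-treated group and 7.24 ± 1.12 in the diabetic group (SD, n = 3 each). The log2 difference was −2.07 (standard error 0.48), a 4.21-fold lower signal.

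**Figure D1:**
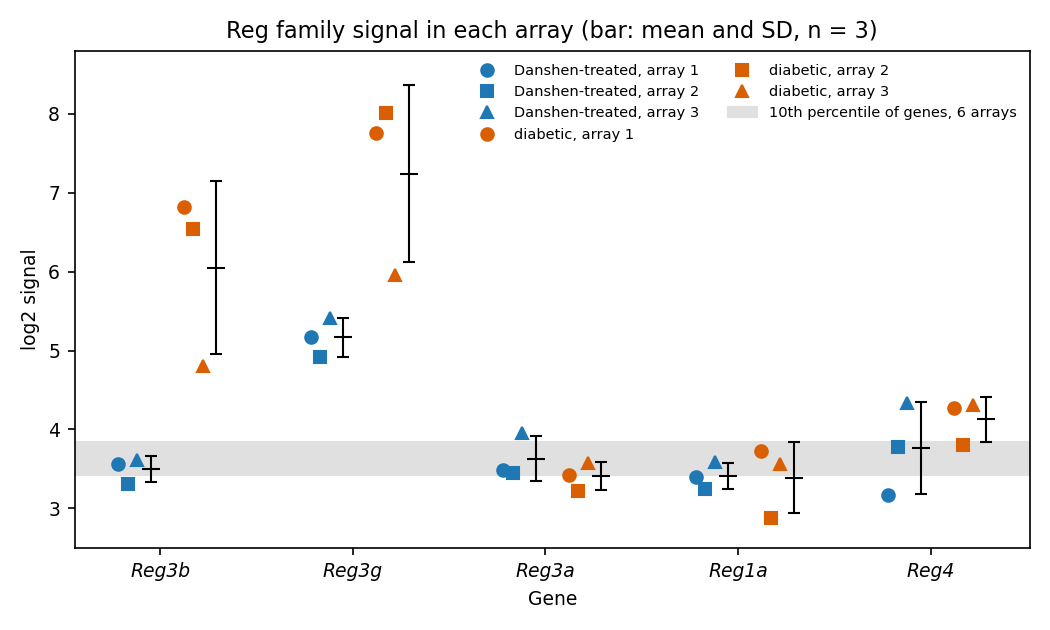
Log2 signal of the 5 Reg genes (x axis) in each array, with Danshen-treated arrays in blue on the left and diabetic arrays in orange on the right of each gene. Bars give the mean and SD (n = 3) and the grey band is the range over the 6 arrays of the 10th percentile of all genes tested (3.42 to 3.84). Reg3b and Reg3g lie lower in every Danshen-treated array, and Reg3a, Reg1a and Reg4 overlap between the groups.

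The other 3 members overlapped between the groups. Reg3a, another of the pancreatitis-associated proteins, had a signal of 3.48, 3.45 and 3.96 in Danshen-treated arrays 1, 2 and 3, against 3.43, 3.22 and 3.58 in diabetic arrays 1, 2 and 3. Its highest array was a Danshen-treated one, and its log2 difference was 0.22 (standard error 0.20). Reg1a had 3.39, 3.25 and 3.59 in the Danshen-treated arrays and 3.72, 2.88 and 3.56 in the diabetic arrays. Both its highest and its lowest value came from a diabetic array, and its log2 difference was 0.02 (standard error 0.24). Reg4 had 3.17, 3.78 and 4.34 in the Danshen-treated arrays and 4.27, 3.80 and 4.32 in the diabetic arrays. Danshen-treated array 1 lay lowest, arrays 2 and 3 lay just outside the range of the diabetic arrays on either side, and the log2 difference was −0.37 (standard error 0.30).

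The signals of Reg3a and Reg1a were weak in all 6 arrays. Of all genes tested, 7.66% to 11.9% lay below Reg3a and 5.65% to 13.2% below Reg1a in a given array. Reg4 stood somewhat higher, with 6.51% to 19.3% of genes below it. No detection call was used here, so it cannot be told whether these rows held signal above background. A fall from such a level may not be measurable, and the overlap of the groups does not show that these genes were alike in them. Reg3b stood at that weak level in the Danshen-treated arrays, with 8.30% to 9.83% of genes below it, against 22.5% to 58.7% in the diabetic arrays. Reg3g stood higher in both groups, with 27.4% to 33.0% of genes below it in the Danshen-treated arrays and 45.8% to 82.9% in the diabetic arrays.

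Across the family, 2 of the 5 members passed the study's threshold in limma's fit (a fold change over 1.5 and a p below 0.05 before adjustment), both lower in the Danshen-treated group, and 0 passed it in the higher direction. Of all genes tested, 3.2% passed that threshold and 2.28% passed it in the lower direction. The groups were free of overlap for the same 2 members, against 10.7% of all genes, or 4.3% with the Danshen-treated arrays lower. The rule for the members used this contrast, so nothing is read from these counts. The median log2 difference of the 5 members was −0.37, against −0.01 for all genes tested. Among all genes ordered by their log2 difference, Reg3b had the third largest fall, at rank 3, and Reg3g stood at rank 5. Without diabetic array 2 these ranks were 8 and 19. By limma, 1 of the 18166 genes passed a Benjamini-Hochberg adjusted p of 0.05, and it was not a member.

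The diabetic arrays differed from each other in Reg3b and Reg3g far more than the Danshen-treated arrays did. The range over the diabetic arrays was 2.01 log2 units for Reg3b and 2.05 for Reg3g, against 0.31 and 0.50 over the Danshen-treated arrays. Only 0.798% of all genes had a larger SD in the diabetic group than Reg3b and 0.699% a larger one than Reg3g, while in the Danshen-treated group 61.1% and 35% had a larger one. The wide spread came from diabetic array 3, which lay 1.88 log2 units below the mean of the other two for Reg3b and 1.93 below it for Reg3g. It was still above all Danshen-treated arrays for both genes. In 49 genes this drop was larger than in Reg3b, and in 36 larger than in Reg3g. Diabetic array 3 was the lowest diabetic array for 44.7% of all genes. Taken over all genes tested, the median of diabetic arrays 1 and 2 minus diabetic array 3 was 0.06 log2 units.

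Both arrays numbered 3 stood apart from the rest of the series. The span of the log2 signal between the 10th and 90th percentiles of genes was 4.48 in Danshen-treated array 3 and 4.45 in diabetic array 3, and 4.92 to 5.19 in the other arrays. The part of this difference in the values of the Reg genes was not tested. Between arrays of the same number, Reg3b was lower in the Danshen-treated array by 3.25, 3.23 and 1.18 log2 units for numbers 1, 2 and 3. For Reg3g the difference was −2.59, −3.09 and −0.54. The arrays numbered 3 gave the smallest difference for both genes. Without both of them, a choice made after the data were seen, the log2 difference was −3.24 for Reg3b and −2.84 for Reg3g, and the standard errors were 0.19 and 0.18.

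Leaving out any single array kept Reg3b and Reg3g lower in the Danshen-treated group. The log2 difference of Reg3b ran from −3.18 without diabetic array 3 to −2.17 without diabetic array 1. That of Reg3g ran from −2.72 without diabetic array 3 to −1.69 without diabetic array 2. The difference of Reg3a stayed positive, from 0.06 to 0.31, and that of Reg4 stayed negative, from −0.65 without Danshen-treated array 3 to −0.07 without Danshen-treated array 1. The difference of Reg1a lay between −0.23 without diabetic array 2 and 0.19 without diabetic array 1, on either side of 0. The family median moved with Reg4, from −0.65 to −0.07.

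**Figure D2:**
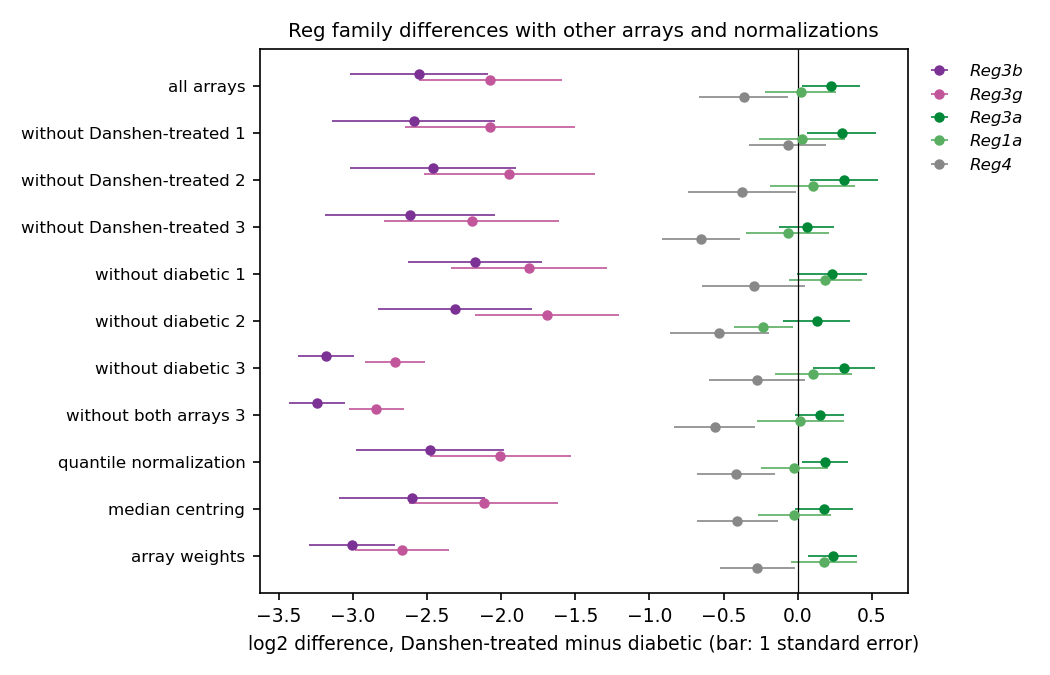
Log2 difference of each Reg gene, Danshen-treated minus diabetic, with 1 standard error of limma's fit (x axis), for all arrays, for each left-out array and for other normalizations (rows). Reg3b and Reg3g lie between −3.24 and −1.69 in every row and are farthest from 0 without the arrays numbered 3, while Reg3a, Reg1a and Reg4 lie between −0.65 and 0.31.

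Reg3b and Reg3g varied together over the 6 arrays, with a Pearson r of 0.987. This r describes 6 points in 2 separate groups, so any gene with a clear group difference scores high, and no test was made. Among 3963 genes whose signal ranged over at least 1 log2 unit, Reg3g had the third highest r with Reg3b. The 8 genes most like Reg3b were Mybph, Dcp1b, Reg3g, Pcdhb15, Chrna1, Si, Slc50a1 and Hpca, with r from 0.976 to 0.989. Si, the sucrase-isomaltase of the enterocyte brush border, was the gut gene among them. The 8 most like Reg3g were Fam107a, Pcdhb15, Reg3b, Arhgdib, Cacng6, Mybph, Lca5 and Ndn, with r from 0.982 to 0.989. Mybph, a myosin-binding protein of muscle, and Pcdhb15, a protocadherin, stood on both lists. All of these genes were lower in every Danshen-treated array than in any diabetic array, against 4.3% of all genes. Their choice by r with Reg3b or Reg3g makes this likely, so nothing is read from it. The signal of Mybph was 6.60, 6.50 and 6.56 in the Danshen-treated arrays, against 7.86, 7.69 and 6.84 in the diabetic arrays. That of Pcdhb15 was 5.72, 5.59 and 5.94 in the Danshen-treated arrays, against 6.89, 7.06 and 6.30 in the diabetic arrays. As in Reg3b and Reg3g, diabetic array 3 was the lowest of the diabetic arrays, which the same choice makes likely.

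Markers of the intestinal epithelium, where Reg3b and Reg3g are normally made, were lower together with them in part. Of 25 measured enterocyte and gut epithelium markers, 8 fell in the Danshen-treated group and 0 rose at the study's threshold by limma, against 2.28% and 0.925% of all genes. The list's median log2 difference was −0.34, against −0.01 for all genes. The groups did not overlap for 9 of the 25, each with the Danshen-treated arrays lower, against 4.3% of all genes in that direction. Fabp2, the intestinal fatty acid-binding protein, was at 4.83, 4.83 and 4.49 in the Danshen-treated arrays, against 7.57, 7.82 and 6.99 in the diabetic arrays (log2 difference −2.75, adjusted p = 0.0365 from limma). Si was at 3.40, 3.56 and 3.72 in the Danshen-treated arrays, against 5.14, 4.86 and 4.40 in the diabetic arrays (log2 difference −1.24, adjusted p = 0.782 from limma). The drop in diabetic array 3 was smaller in these genes than in Reg3b and Reg3g. The gut genes Vil1, the actin-bundling protein of microvilli, and Cdx2, the transcription factor of intestinal identity, overlapped between the groups, Vil1 only barely. Vil1 was at 4.88 to 5.20 in the Danshen-treated arrays and 5.20 to 5.52 in the diabetic arrays (log2 difference −0.30, close to the list's median). Cdx2 was at 5.30 to 6.09 in the Danshen-treated arrays and 4.76 to 5.53 in the diabetic arrays (log2 difference 0.37). Cdh17, a further gene of the list, passed the threshold and was lower in every Danshen-treated array (log2 difference −0.69, adjusted p = 0.782 from limma).

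Summed on the linear scale, the signal of the 25 gut markers was 1249 to 1826 in the Danshen-treated arrays and 1584 to 2440 in the diabetic arrays, so the sums overlapped. Strong markers that did not pass the threshold weigh most in such a sum, among them Epcam, at 7.46 to 9.04 log2 units over the arrays. The overlap of the sums therefore says little about the 8 markers that fell. Array signals have no 0, so absence of a marker could not be read from them. In bulk retina, fewer cells of a type and less RNA per cell cannot be told apart, and the part of gut-type RNA in the values of Reg3b and Reg3g was not tested. Several of these gut genes, and Reg3b and Reg3g, were picked by the study from these arrays, which makes the count no independent evidence. It became 5 when diabetic array 1 was left out and 4 with a fold change over 2. It became 0 when only genes above the median signal were tested, a setting that kept 4 of the 25. It rose to 9 without diabetic array 2 or 3 or with the replicate number as a block, and to 10 without both arrays numbered 3. Of 19 markers of goblet cells, Paneth cells and mucosal defence, 3 fell and 0 rose, against 2.28% and 0.925% of all genes, and the list's median was −0.06. The 3 were Pla2g2a, a secreted phospholipase that kills bacteria (log2 difference −1.71), Zg16, a lectin of goblet cells (−1.20), and Lcn2, a siderophore-binding protein (−0.79), each with an adjusted p of 0.782 from limma. Lcn2 lost its call without Danshen-treated array 2 (−0.69) or 3 (−0.77) or diabetic array 2 (−0.48). The list's count became 2 without diabetic array 2 and 1 by the methods' t-test. That count was 4 without Danshen-treated array 1 or 3, with array weights or with the replicate number as a block. With the block, 1 of the 4 was higher and 3 were lower. Without Danshen-treated array 2 the count stayed at 3, of which 1 was higher and 2 lower. Without both arrays numbered 3 it was 5, all lower.

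**Figure D3:**
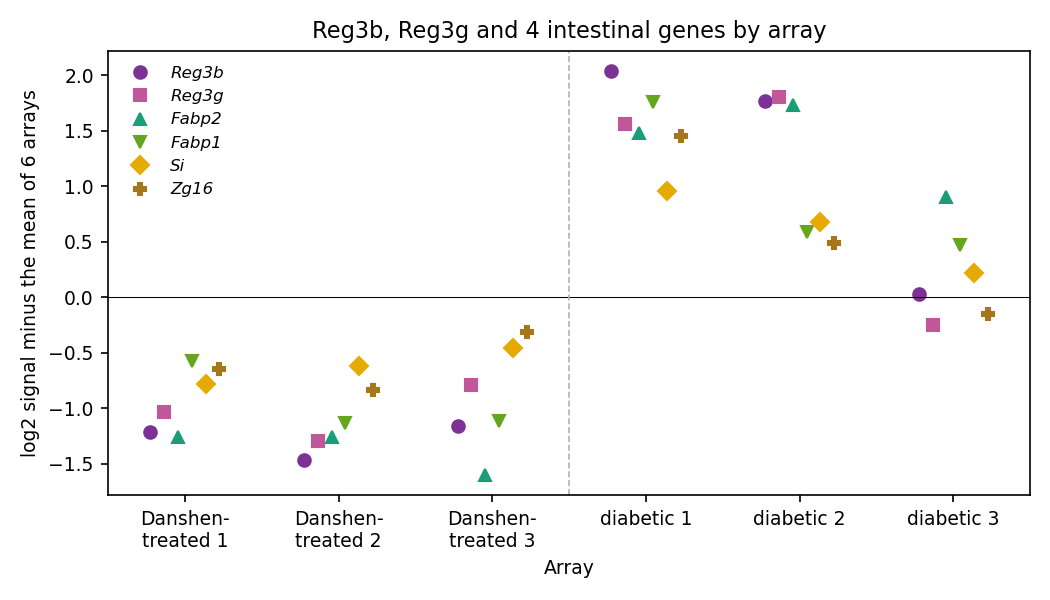
Log2 signal minus the gene's mean over the 6 arrays (y axis) for Reg3b, Reg3g and the intestinal genes Fabp2, Fabp1, Si and Zg16 in each array (x axis, Danshen-treated arrays on the left). All 6 genes lie below their mean in the Danshen-treated arrays and well above it in diabetic arrays 1 and 2. In diabetic array 3 Reg3b lies near its mean, and Reg3g and Zg16 lie below theirs. The 4 intestinal genes were picked among the markers that passed the threshold, 17 of the 25 gut markers did not pass, and Cdx2 (log2 difference 0.37) and Fcgbp of the goblet list (0.65) were among those with a positive difference.

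No fall of pancreatic markers was detected. Of 19 measured acinar markers, 0 passed the threshold in either direction by limma, also with each array left out in turn, and 0 by the methods' t-test. With 3.2% of all genes past the threshold, a count of 0 in a list of this size is close to the background, and nothing particular to these markers is read from it. Of them, 0 had an unadjusted p under 0.05 by limma, against 1099 of all 18166 genes. The acinar median log2 difference was 0.16. Cpa1, a digestive carboxypeptidase, was at 4.71 to 4.86 in the Danshen-treated arrays and 4.51 to 4.78 in the diabetic arrays. Of 8 islet markers, 0 passed by limma or by the methods' t-test and 0 had an unadjusted p under 0.05 by limma, with a median of −0.09, and 1 passed without Danshen-treated array 3 and with the replicate number as a block. The insulin gene Ins2 was at 5.33 to 5.84 in the Danshen-treated arrays and 5.16 to 5.63 in the diabetic arrays (log2 difference 0.22). The other insulin gene, Ins1, was at 2.73, 2.37 and 3.64 in the Danshen-treated arrays, against 3.03, 3.20 and 4.31 in the diabetic arrays. Its groups overlapped, and its log2 difference was −0.60 (standard error 0.41). Ins1 was the islet marker that passed without Danshen-treated array 3 (−0.96). The groups were free of overlap for 1 of the 19 acinar markers and 0 of the 8 islet markers, against 10.7% of all genes. Diabetic array 3 was the highest diabetic array for 15 of the 19 acinar markers. Over all 19, the median of diabetic arrays 1 and 2 minus diabetic array 3 was −0.59 log2 units. This was opposite in direction to Reg3b and Reg3g. The part of this shift in the list's median was not tested.

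Of 24 measured genes for the candidate Reg receptor and for the cytokine pathway that induces Reg genes, 0 passed the threshold by limma or by the methods' t-test, 0 had an unadjusted p under 0.05 by limma, and the median log2 difference was −0.06. Beside the 3.2% of all genes that passed, this count too is close to the background. Of all 18166 genes, 1099 had an unadjusted p under 0.05 by limma. The lowest unadjusted p of the list in limma's fit was 0.0722, for Il10rb, a shared chain of the interleukin-22 receptor (log2 difference −0.60, standard error 0.29). Extl3, a glycosyltransferase described as a receptor for Reg proteins, was at 6.77, 7.04 and 6.74 in the Danshen-treated arrays, against 8.42, 8.97 and 6.17 in the diabetic arrays. Diabetic array 3 was thus the lowest of all 6 arrays for Extl3, and the log2 difference was −1.003 (standard error 0.61, adjusted p = 0.784 from limma). Without diabetic array 3 the difference was −1.85 and Extl3 was 1 of 4 genes of the list that passed (1 higher and 3 lower). Without Danshen-treated array 1 the list had 1. With array weights 3 genes of the list passed, and 1 with the replicate number as a block. Without both arrays numbered 3 the list had 3, all lower. Stat3, which carries the interleukin signal to the Reg3 genes in the gut, was at 9.01, 8.62 and 8.30 in the Danshen-treated arrays and 8.97, 8.68 and 8.50 in the diabetic arrays. Its inhibitor Socs3 was at 6.17, 6.31 and 6.46 in the Danshen-treated arrays and 7.18, 6.37 and 6.48 in the diabetic arrays. Il22 and Il6 overlapped between the groups as well. Il22 was at 4.44 to 5.44 in the Danshen-treated arrays and 4.10 to 4.94 in the diabetic arrays, and Il6 at 4.48 to 4.77 in the Danshen-treated arrays and 4.42 to 4.84 in the diabetic arrays.

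Other genes listed for a C-type lectin domain were called about as often as genes in general with all arrays. The domain was not checked in each of them. Of the 41 measured, 1 rose and 0 fell at the threshold by limma, against 0.925% and 2.28% of all genes. Their median log2 difference was −0.04. The gene that rose was Clec2g, a ligand of natural killer cell receptors, at 9.65, 9.13 and 9.11 in the Danshen-treated arrays and 8.28, 8.25 and 8.92 in the diabetic arrays (log2 difference 0.81, adjusted p = 0.782 from limma). The count over this list became 4 without diabetic array 3 and 2 without Danshen-treated array 1 or diabetic array 2. It was 3 with array weights (1 higher and 2 lower), 2 under quantile normalization, median centring or the replicate block, and 0 with a fold change over 2. Without both arrays numbered 3 it was 4, of which 1 was higher and 3 lower. The groups did not overlap for 4 of the 41 with the Danshen-treated arrays lower, against 4.3% of all genes. They did not overlap for 1 with those arrays higher, against 6.43%.

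Genes of neuron injury and reactive glia were included because Reg3b is known from injured neurons. Of 19 measured, Timp1, a metalloproteinase inhibitor, rose (log2 difference 0.80, adjusted p = 0.782 from limma), while Lcn2 and Serpina3n, a serpin of reactive astrocytes, fell, against 0.925% of all genes higher and 2.28% lower, and the median was 0.01. Serpina3n had a log2 difference of −0.71 (adjusted p = 0.782 from limma) and lost its call without any of the Danshen-treated arrays or diabetic array 2, at −0.81 to −0.33. Gfap, the filament protein of reactive glia, was at 6.32 to 6.99 in the Danshen-treated arrays and 6.43 to 7.04 in the diabetic arrays. Vim, also on the list, did not pass but was lower in every Danshen-treated array (log2 difference −0.40). The groups did not overlap for 4 of the 19 with the Danshen-treated arrays lower, against 4.3% of all genes. They did not overlap for 1 with those arrays higher, against 6.43%. The count over the list became 1 without Danshen-treated array 2 or 3 and by the methods' t-test, 5 without diabetic array 3 and with the replicate number as a block, and 0 with a fold change over 2.

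The tissue label was checked on genes of the retina. Of 20 such genes, 17 had a row of their own, and their mean signals ran from 5.77 to 13.0. Gnat1, the rod transducin, was at 12.9, 12.8 and 12.7 in the Danshen-treated arrays and 13.3, 13.3 and 12.9 in the diabetic arrays. Of the 17, 0 passed the threshold by limma or by the methods' t-test with all arrays. With 3.2% of all genes past it by limma, that count is close to the background. By limma 2 had an unadjusted p under 0.05, against 1099 of all 18166 genes. The median log2 difference of the 17 was −0.31, close to that of the gut markers. The groups did not overlap for 5 of them with the Danshen-treated arrays lower and 1 with them higher, against 4.3% and 6.43% of all genes. For the 17, the count past the threshold became 3 without diabetic array 3 and 1 without Danshen-treated array 2. It was 2 with array weights and 1 with the replicate number as a block. Without both arrays numbered 3 it was 4, of which 1 was higher and 3 lower. The summed linear signal of the 17 was 24077 to 28039 in the Danshen-treated arrays and 26610 to 34500 in the diabetic arrays. Among the diabetic arrays, 15 of the 17 were lowest in diabetic array 3. The part of this shift in the values of the Reg genes was not tested.

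**Figure D4:**
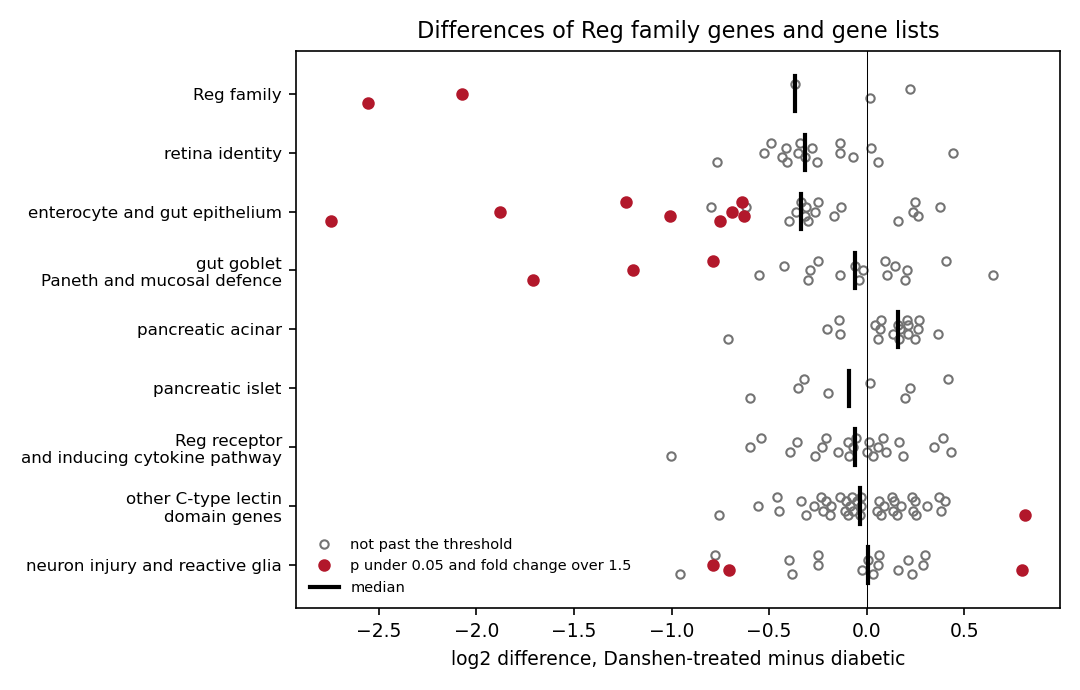
Log2 difference, Danshen-treated minus diabetic (x axis), of the 5 Reg genes and of the measured genes of each list (rows). Filled points passed the study's threshold by limma and bars are medians. The Reg family holds 2 filled points below −2, and the gut epithelium list holds 8 among 25 genes. The goblet and injury lists hold 3 each, the lectin list 1, and the retina, pancreatic and receptor lists none. Of all genes tested, 3.2% passed, so a count of 0 in lists of 8 to 24 genes is close to the background.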

How the data were processed

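Retinal RNA of 3 Danshen-treated and 3 diabetic arrays was measured. The authors used Expression Console Software 1.41 on the scans and deposited 36685 probe rows with 1 log2 signal per array. How background, normalization and summarisation were handled is not given in the sources read here, and no per-sample column was left unused. Exactly 1 gene symbol was given for 18511 rows by the platform annotation, and 18394 of them were matched to RefSeq by gene identifier. The row with the highest mean was kept per gene, which gave 18166 genes, with no filter on weak signals.

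Groups were compared by limma 3.58.1 in R 4.3.3 (lmFit and eBayes) with Benjamini-Hochberg adjustment over all genes. The methods' threshold, a fold change over 1.5 and a p below 0.05 before adjustment, was applied to limma's test, which was tested on simulated data. The members and the gene lists were chosen with earlier results of these data known. Named genes are the members, up to 4 genes with the smallest p of each list, genes that check a tissue or the list's defining roles, and the 8 genes most correlated with Reg3b and with Reg3g. The genes Vil1, Cdx2, Cpa1, Ins2, Stat3, Socs3, Il22, Il6, Gfap and Gnat1 were added after their values were seen, for their roles. Fcgbp and Cdh17 were likewise added for their direction, and Epcam for its strong signal. Where arrays were not from separate rats, p-values measure only technical spread. Arrays give no counts, so their number limits the precision.

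The deviations of same-numbered arrays from their group means had correlations of 0.274, 0.292 and 0.445 over genes, and those of different numbers −0.351 to 0.0643, so the numbers were taken as pairs in an alternative with the replicate number as a block. The other alternatives were the methods' t-test, trend and robust moderation, quantile normalization, median centring, array weights, genes above the median signal, the mean of a gene's rows, all probe rows, a fold change over 2, and each array left out. Upstream regions were aligned with Biopython 1.88.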

Additional observations from a re-analysis of the deposited data

How the results depend on the processing

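The log2 differences of Reg3b, Reg3g, Reg3a and Reg4 kept their direction under quantile normalization, median centring, array weights, the mean of a gene's rows, the replicate block and with each array left out, while Reg1a, near 0, changed sign under several of them. The family median was −0.37 with all arrays, −0.65 to −0.07 with 1 array left out, −0.56 without both arrays numbered 3, and −0.42, −0.41 and −0.27 under quantile normalization, median centring and array weights. With the replicate number as a block it was unchanged at −0.37, and the standard errors were 0.41 for Reg3b and 0.46 for Reg3g. The genes past the study's threshold, 582 by limma, became 196 by the methods' t-test (0 after adjustment, 930 at an unadjusted p under 0.05), 1362 with array weights, 381 of 9083 genes above the median signal, 1898 of all probe rows, 90 with a fold change over 2, 840 with the replicate block, 323 to 1984 with 1 array left out and 1482 without both arrays numbered 3. Over the 7 lists outside the retina, 14 genes passed, 12 of them lower. The count was 5 among genes above the median signal, where fewer genes were tested, 6 with a fold change over 2, 21 with the replicate block, 11 to 24 with 1 array left out (the highest when diabetic array 3 was left out) and 24 when both arrays numbered 3 were. The cause of the other changes was not tested. Leaving out both arrays numbered 3 was chosen after the data were seen.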
